A study of Drosophila melanogaster with 6 samples.

Results

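The sarcomere is the repeating unit of striated muscle, and 10 Drosophila genes for its main structural proteins were followed through RNA-seq of the larval intestine. They were taken by symbol as myosin heavy chain (Mhc), the myosin light chains (Mlc1 and Mlc2), the troponins (up and wupA), the tropomyosins (Tm1 and Tm2), paramyosin (Prm) and the giant connecting proteins (bt and sls), and all 10 were found among 17895 genes and passed the filter on low counts. The libraries came from whole intestines of larvae of 2 genotypes, control and EcRi, with 3 libraries for each. Both genotypes were spoki, meaning that Tub-LexA drove a LexO hairpin against spok, a gene of ecdysone synthesis. Both also carried a UAS hairpin against the ecdysone receptor EcR together with Tub-GAL80ts. This temperature-sensitive inhibitor keeps GAL4 silent in the cold and, by the account of the study, the LexA driver too. According to the crosses in the methods, only EcRi also held the driver Myo1A-GAL4, so that the control had the EcR hairpin without a driver. The titles of the control samples nevertheless read myo1a-con, another description of the same data names a control knockdown with this driver, and the difference was not settled here. Eggs were collected for 8 h, and larvae spent 6 days at 18 °C followed by 4 days at 29 °C. Myo1A-GAL4 acts in enterocytes, the absorptive cells of the gut epithelium, and is not a muscle driver. The number of intestines per library is not given in the sources used here.

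Muscle contracts when myosin in the thick filaments pulls on actin in the thin filaments. Calcium starts this pull by binding troponin C, which moves the rest of the troponin complex and tropomyosin along the actin filament. The larval gut is wrapped in visceral muscle, a sheath of striated circular and longitudinal fibres that drives peristalsis and is dissected together with the epithelium. The libraries therefore hold RNA of the epithelium and of this sheath. In such bulk RNA fewer muscle cells, less RNA per muscle cell and more RNA from other cells cannot be told apart.

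The libraries held between 200890663 and 246255664 counts, and 3 counts corresponded to between 0.0122 and 0.0149 CPM (the count scaled to the total of its library), which allows for counting error alone. The share of the sarcomere genes was 0.206 to 0.270% in control and 0.153 to 0.188% in EcRi. Levels below are CPM scaled by TMM, edgeR's correction for library composition, with factors of 0.713 to 0.845 in control and 1.21 to 1.30 in EcRi. Leaving TMM out raises the median over all features from a log2 fold change of 0.03 to 0.68, so that every fold change below depends on this scaling. EcR itself, the gene targeted by the hairpin, lay at 33.5 ± 10.5 CPM in control and 29.9 ± 1.87 CPM in EcRi (SD, n = 3 libraries each), and the difference did not pass the edgeR test (adjusted p = 0.517).

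In the EcRi intestines 9 of the 10 sarcomere genes fell, none rose, and sls did not pass the test (edgeR quasi-likelihood test, Benjamini-Hochberg adjusted p below 0.05 over 12193 features), and of these 9 only Tm1 turned to a positive log2 value without TMM. Of all features tested 59.5% passed, 29.3% lower in EcRi and 30.1% higher. In limma-voom 9 sarcomere genes were lower too, against 29.6% of all features lower and 30% higher, and without TMM 7 were lower, against 12.7% of all features. The 9 genes that fell in edgeR had every EcRi library below every control library, as did 33.4% of all features, while 34.9% had every EcRi library above. The fall was by more than 1 on the log2 scale in 7 of the genes, against 14.5% of all features. The median log2 fold change of the 10 genes was -1.35, against 0.03 for all features. Summed over the 10 genes, the level was 2738, 3196 and 2888 CPM in the control libraries and 1260, 1372 and 1449 CPM in the EcRi libraries. Every EcRi library thus held less sarcomere mRNA than every control library on this scale.

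**Figure D1:**
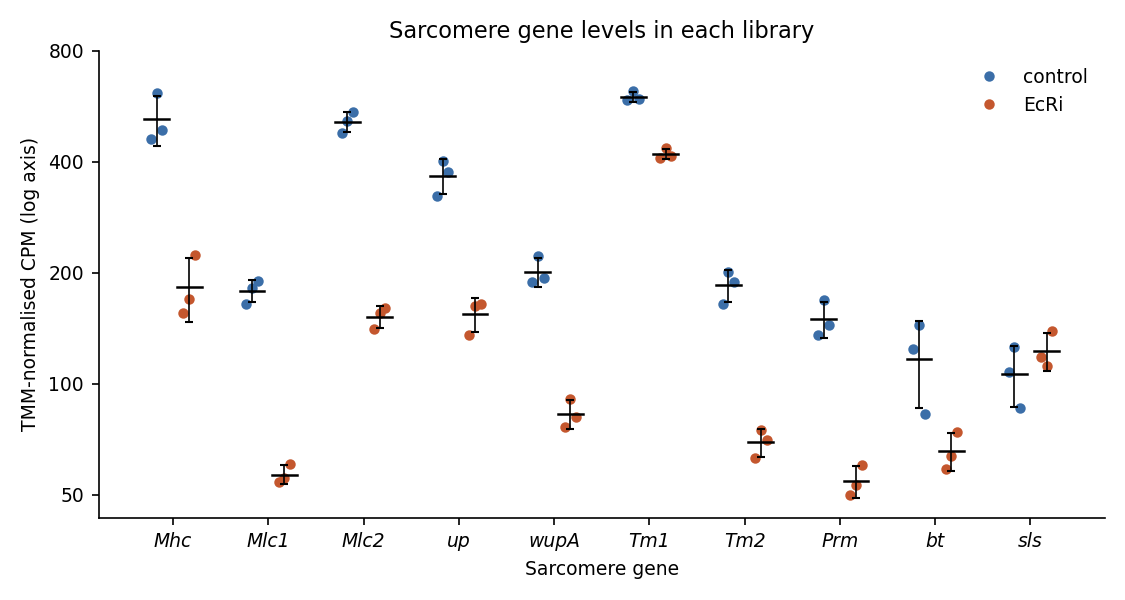
Level of each of the 10 sarcomere genes in TMM-scaled CPM (log axis), with 1 point for each of the 3 control and 3 EcRi libraries and a bar at the mean of each genotype with whiskers of 1 SD. The points of the genotypes are apart for all genes but sls, where the EcRi libraries (112 to 139 CPM) lie among and above the control libraries (85.8 to 126 CPM).

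Mhc is the only gene for the muscle myosin heavy chain in the fly, the motor of the thick filament, and its many isoforms arise by alternative splicing. It lies on the plus strand of chromosome 2L from 16766566 to 16788766 in the BDGP6 genome, with 21 annotated transcripts, whose counts are added together in these data. Its level was 462, 615 and 489 CPM in the control libraries and 156, 169.9 and 224 CPM in the EcRi libraries. All EcRi values lay far below all control values. The mean of 522 ± 81.4 CPM in control compared with 183 ± 36.0 CPM in EcRi (SD, n = 3 each), and Mhc fell by 1.51 on the log2 scale (SE 0.18, edgeR adjusted p = 0.000215), or 2.85-fold.

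The myosin light chains bind the neck of the myosin head. Mlc1, on the minus strand of 3R from 27657078 to 27660177, encodes the alkali light chain, and Mlc2, on the minus strand of 3R from 30171438 to 30174551, encodes the regulatory light chain. Mlc1 was at 165, 181 and 189.6 CPM in control and at 54.1, 55.4 and 60.5 CPM in EcRi. Mlc2 was at 479, 516 and 546 CPM in control and at 140.5, 155 and 160.3 CPM in EcRi. Both genes were lower in every EcRi library, with narrow spreads within each genotype. Mlc1 fell by 1.66 on the log2 scale (SE 0.10, edgeR adjusted p = 9.53e-06) and Mlc2 fell by 1.76 (SE 0.11, edgeR adjusted p = 1.11e-05), the lowest log2 fold changes of the 10 genes. The count ratio of Mlc1 to Mlc2 was 0.348 ± 0.00373 in control and 0.373 ± 0.0150 in EcRi (SD, n = 3 each).

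Paramyosin, the product of Prm, forms the core of thick filaments in invertebrate muscle, and the same gene also makes the shorter miniparamyosin. Prm lies on the minus strand of 3L from 8732858 to 8745310 and was at 136, 169 and 144.5 CPM in control and at 49.8, 53.3 and 60.3 CPM in EcRi. The groups were apart by more than their own ranges, and Prm fell by 1.46 on the log2 scale (SE 0.12, edgeR adjusted p = 3.68e-05). Its count ratio to Mhc, 0.288 ± 0.0119 in control and 0.301 ± 0.0276 in EcRi (SD, n = 3 each), overlapped between the genotypes. Mlc2 likewise overlapped in its ratio to Mhc, at 0.998 ± 0.143 in control and 0.844 ± 0.111 in EcRi.

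On the thin filament, up encodes troponin T, which anchors the troponin complex to tropomyosin, and wupA encodes troponin I, which holds the filament off in the absence of calcium. Both genes lie on the minus strand of the X chromosome, up from 13593474 to 13602578 and wupA from 18105568 to 18116922. The values of up were 324, 402 and 375 CPM in control and 135.5, 162 and 165 CPM in EcRi. Those of wupA were 188.5, 222 and 194 CPM in control and 76.2, 90.9 and 81.5 CPM in EcRi. No EcRi library reached the lowest control library for either gene. The fall was of 1.25 on the log2 scale for up (log2 fold change -1.25, SE 0.13, edgeR adjusted p = 0.000108) and close to the same for wupA (log2 fold change -1.28, SE 0.11, edgeR adjusted p = 4.68e-05). Their count ratio, up to wupA, was 1.82 ± 0.110 in control and 1.86 ± 0.140 in EcRi (SD, n = 3 each), and the libraries overlapped.

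The tropomyosin genes are neighbours on the plus strand of 3R, Tm1 from 15278220 to 15308779 and Tm2 from 15310193 to 15315197, with 1413 bases between them. Tropomyosin is a coiled coil that lies along the actin filament and covers its myosin sites at rest. Tm1 makes cytoplasmic as well as muscle isoforms, which a count per gene does not separate, whereas Tm2 is mainly a muscle gene. Tm1 was at 587, 621 and 594 CPM in control and at 409, 435 and 414 CPM in EcRi. Tm2 was at 164, 201 and 189 CPM in control and at 62.8, 74.8 and 70.3 CPM in EcRi. Each gene was lower in all EcRi libraries, with a much smaller step for Tm1. Tm2 fell by 1.42 on the log2 scale (SE 0.11, edgeR adjusted p = 3.58e-05) and Tm1 fell by 0.52 (SE 0.10, edgeR adjusted p = 0.00241). Without TMM the log2 fold change of Tm1 was 0.13 and did not pass (edgeR adjusted p = 0.357). The count ratio of Tm1 to Tm2 does not depend on the scaling and was 3.57, 3.09 and 3.14 in the control libraries and 6.52, 5.81 and 5.90 in the EcRi libraries, so these neighbours moved apart without overlap.

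Among the giant proteins, bt encodes projectin, an elastic protein with a kinase domain, and sls encodes the Drosophila titin homologue, with kettin among its products, which links the Z disc to the thick filament. The gene bt lies on the plus strand of chromosome 4 from 724400 to 776474 and sls on the minus strand of 3L from 2039681 to 2115611. The level of bt was 124, 144 and 82.7 CPM in control and 58.9, 63.8 and 74.2 CPM in EcRi. The third control library lay well below the other two and close to the EcRi values, without overlap. The gene fell by 0.83 on the log2 scale (SE 0.20, edgeR adjusted p = 0.0100), but without TMM its log2 fold change was -0.20 (edgeR adjusted p = 0.519).

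The level of sls was 108, 126 and 85.8 CPM in control and 118, 112 and 139 CPM in EcRi. The libraries overlapped, and the log2 fold change of 0.21 (SE 0.15) did not pass (edgeR adjusted p = 0.282). Without TMM it was 0.85 and passed (edgeR adjusted p = 0.00637), as did 57.3% of all features in this direction under that scaling. For every single gene but sls, the exact two-sided permutation test on log2 CPM gave the smallest p that 3 libraries against 3 allow, 0.1, so this test could not pass 0.05 for any gene.

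**Figure D2:**
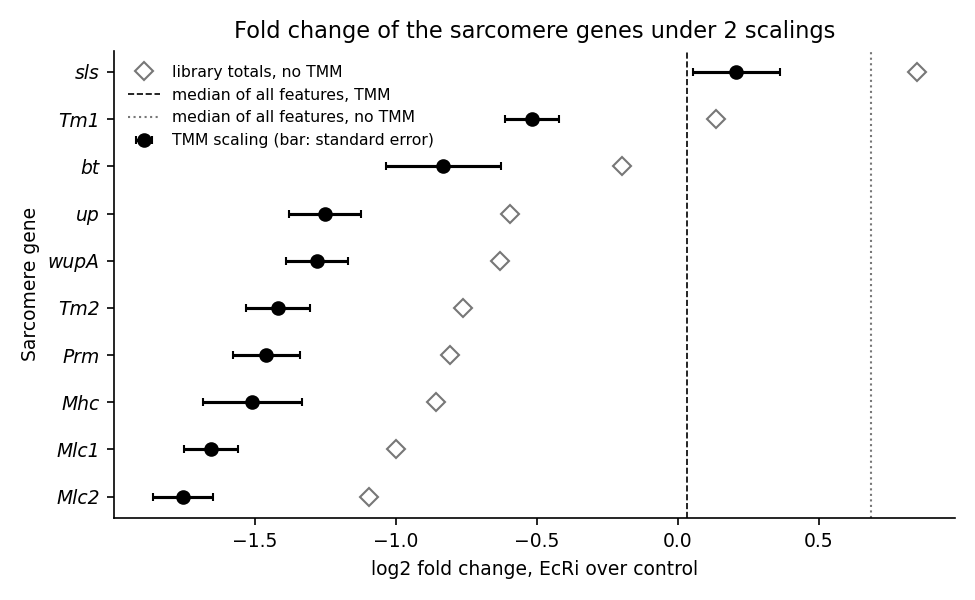
Log2 fold change of each sarcomere gene, EcRi over control, from edgeR with TMM scaling and without it, with bars of 1 standard error of the TMM estimate and lines at the median of all features under each scaling. With TMM 9 genes lie below 0, from -1.76 for Mlc2 to -0.52 for Tm1, and sls at 0.21, whereas without TMM Tm1 lies at 0.13 and sls at 0.85.

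The 10 genes are very unequal in length, with annotated exons that cover from 1414 bases in Mlc1 to 58996 bases in sls. Compared per kilobase of exon, Mlc2 was the most abundant in control at 225 CPM per kb, followed by up at 145, Mlc1 at 126 and wupA at 102 CPM per kb. Tm2 (70.8 CPM per kb), Tm1 (61.2) and Mhc (57.6) followed, then Prm (27.9), bt (4.17) and sls (1.80). In this order the libraries of up and Mlc1 overlapped, as did those of Tm2 and Tm1 and those of Tm1 and Mhc. In EcRi the order was Mlc2 (66.5 CPM per kb), up (61.0), Tm1 (42.8), wupA (41.9), Mlc1 (40.1), Tm2 (26.5), Mhc (20.2), Prm (10.2), bt (2.34) and sls (2.08). Neighbours that overlapped there were Mlc2 and up, Tm1 and wupA, wupA and Mlc1, Tm2 and Mhc, and bt and sls. Tm1 took the sixth place in control and the third in EcRi. These levels take the exons of all isoforms as the length, so that genes with long, rarely used exons appear lower.

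Within each library, the position of a gene relative to the mean log2 CPM of all 10 is free of the scaling between libraries. On this measure sls lay below the mean in control, at -1.202 ± 0.194 (SD, n = 3), and above it in EcRi, at 0.16 ± 0.12, a shift of 1.36. Tm1 shifted by 0.63 and bt by 0.34 in the same direction, while Mlc2 (-0.61), Mlc1 (-0.51), Mhc (-0.37), Prm (-0.31), Tm2 (-0.27) and wupA (-0.14) shifted the other way, all without overlap of the genotypes, though only just for wupA. Only up, with a shift of -0.11, overlapped. The shifts sum to 0 by construction. The exact two-sided permutation test gave p = 0.1 for each gene (adjusted p = 0.111 over the 10 genes) but up (p = 0.2, adjusted p = 0.2). Leaving out control replicate 3 lowered the shift of bt from 0.34 to 0.15.

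**Figure D3:**
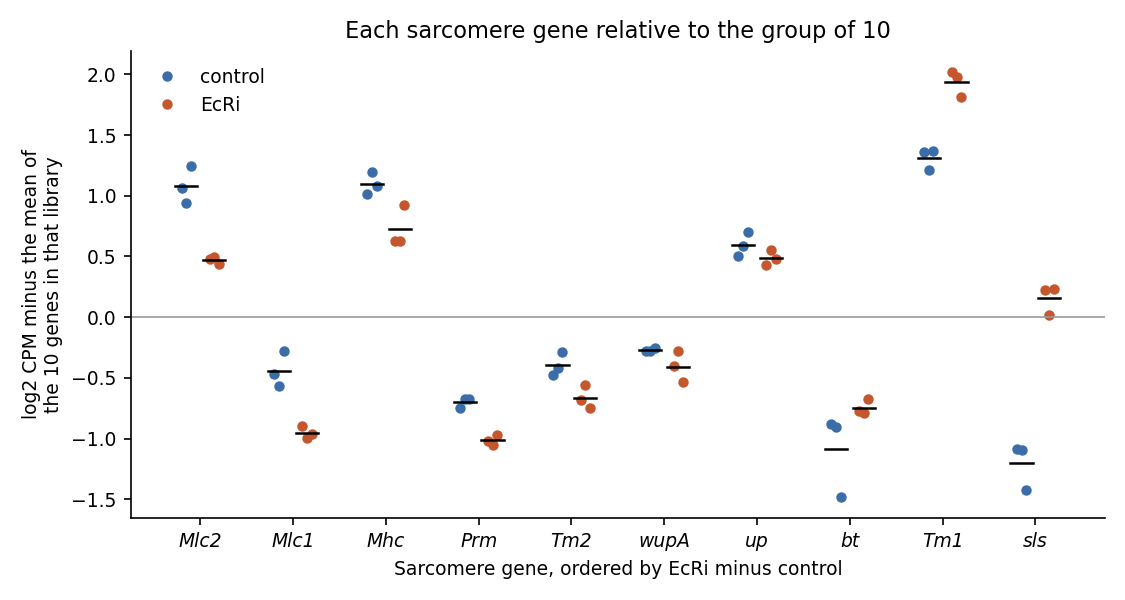
Position of each sarcomere gene relative to the mean log2 CPM of the 10 genes in the same library, with 1 point per library of control and EcRi and a bar at each mean. Mean positions of sls (-1.202 to 0.16), Tm1 (1.31 to 1.94) and bt (-1.09 to -0.75) are higher in EcRi, and those of the other genes are lower, with an overlap for up.

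The counts of sls and bt were also set against those of Mhc. The ratio of sls to Mhc was 0.233, 0.204 and 0.175 in control and 0.755, 0.657 and 0.620 in EcRi. All EcRi ratios lay far above all control ratios, and the means differed 3.32-fold. The ratio of bt to Mhc was 0.224 ± 0.0503 in control and 0.361 ± 0.0262 in EcRi (SD, n = 3 each), also without overlap. These partners were chosen after the values were seen, and the ratios are given as a description without a test.

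Over all genes the fold change rose with exon length. On the TMM scale its median in log2 was -0.19 for exon lengths under 1 kb, -0.09 from 1 to 2 kb, 0.07 from 2 to 3 kb, 0.13 from 3 to 5 kb, 0.25 from 5 to 10 kb and 0.22 over 10 kb. Relative to the genes of its own length class, sls was at -0.01 and bt at -1.05. Tm1 was then at -0.77 and Mhc at -1.76, and the other genes lay between -1.83 for Mlc2 and -1.19 for wupA. The class over 10 kb held 269 genes, and its median deviation from the genotype mean varied from -0.08 to 0.07 among the control libraries and from -0.14 to 0.20 among the EcRi libraries. The part of RNA quality in these values was not tested.

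**Figure D4:**
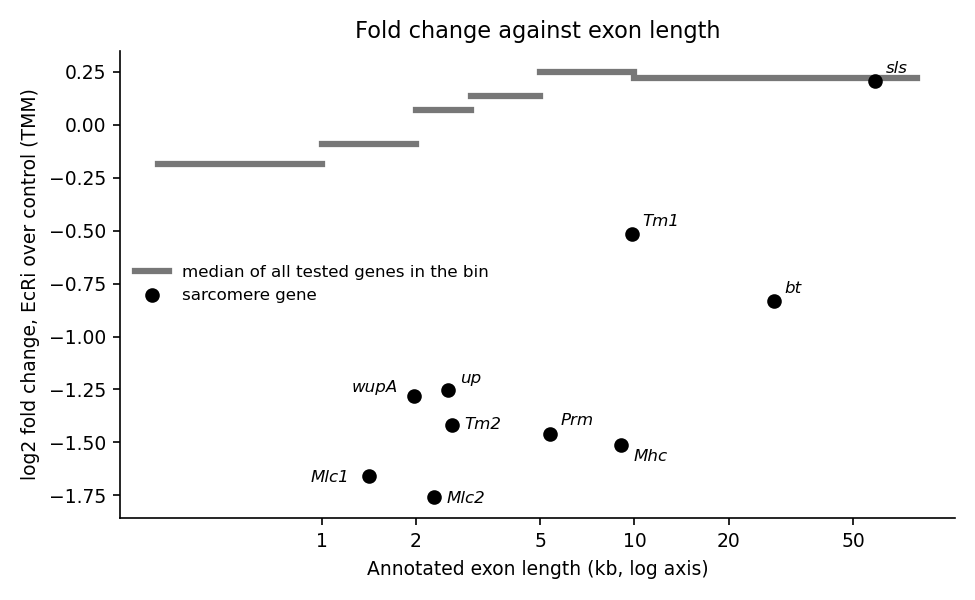
Log2 fold change of the sarcomere genes (points; EcRi over control, TMM) against annotated exon length in kb (log axis), with grey lines at the median of all tested genes in each of 6 length classes. The class medians go from -0.19 under 1 kb to 0.22 over 10 kb, sls lies on the median of its class, and the other 9 genes lie below theirs.

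Across the 6 libraries, log2 CPM correlated with the mean of the 10 genes at a Pearson r between 0.989 and 0.999 for 8 genes, at 0.895 for bt and at -0.39 for sls. Each gene is itself part of that mean, and the libraries share the genotype difference, so the values are a description. Among 5898 other features with a mean of at least 10 CPM, the 10 most alike in pattern over the 6 libraries had an r between 0.994 and 0.998. The only muscle structural gene among them was Act57B (r = 0.996), a muscle actin. Amph (log2 fold change -1.09), which encodes amphiphysin, a protein of the T-tubule membrane, was there too. The others were mwh (-2.42), CG7778 (-1.84), CG9393 (-0.58), Sf3b3 (-0.92), Est-Q (-1.70), vanin-like (-3.02), Nrd1 (-0.58) and CG5958 (-1.96). Without TMM, CG9393 and Nrd1 turned to log2 values of 0.076 and 0.074.

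Beyond these 10 genes, 65 further genes of muscle were listed by role, and of the 58 tested 25 rose, 12 fell and 21 did not pass, the median being 0.19 on the log2 scale. Without TMM the split was 36 higher and 6 lower. Since these genes did not move in 1 direction, they are described by role. Their counts stand beside 30.1% higher and 29.3% lower of all features with TMM. Without TMM the shares of all features were 57.3% higher and 12.7% lower.

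In the thin filament, 4 of 9 further genes fell and 2 rose, with a median of -0.52 that turned to 0.15 without TMM. With TMM this median was the value of Act88F, which did not pass (edgeR adjusted p = 0.370). Act88F was close to the limit of detection, at 0.0854 CPM in control and 0.0591 CPM in EcRi. Act57B, the most abundant, was at 849, 1026 and 947 CPM in control and at 171, 189.6 and 212 CPM in EcRi. It fell by 2.30 on the log2 scale (SE 0.13, edgeR adjusted p = 9.83e-06), further than any of the 10 sarcomere genes, and its count ratio to Mhc was 1.81 ± 0.136 in control and 1.05 ± 0.0932 in EcRi (SD, n = 3 each). A second muscle actin, Act87E, fell by 2.82 (SE 0.12, edgeR adjusted p = 2.43e-06). Act79B, an actin of leg and other tubular muscles of the adult, was at 3.05 ± 0.452 CPM in control and 5.76 ± 0.322 CPM in EcRi and rose (log2 fold change 0.92, SE 0.14, edgeR adjusted p = 0.000879).

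The troponin C genes, which encode the calcium sensor that acts with up and wupA, moved in different directions. TpnC47D was at 35.3, 34.7 and 41.8 CPM in control and at 3.74, 2.64 and 2.44 CPM in EcRi. TpnC73F was at 43.6, 47.2 and 47.2 CPM in control and at 58.7, 79.1 and 70.6 CPM in EcRi. The genes were near to each other in control, and in EcRi every library held far more TpnC73F. TpnC47D fell by 3.67 on the log2 scale (SE 0.19, edgeR adjusted p = 6.73e-06), or 12.7-fold, and TpnC73F rose by 0.59 (SE 0.12, edgeR adjusted p = 0.00327). TpnC25D, at a lower level, fell by 1.51 (SE 0.16, edgeR adjusted p = 0.000117). The count ratio of TpnC47D to TpnC73F was 0.810 ± 0.0746 in control and 0.0438 ± 0.0172 in EcRi (SD, n = 3 each). Act87E, TpnC73F and TpnC25D were picked after their values were seen, while the 3 troponin C directions were the same with and without TMM.

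Of 4 further genes of the thick filament and M line, 2 fell and 2 rose. Mf, which encodes myofilin, fell from 135 ± 14.6 to 71.9 ± 0.801 CPM (log2 fold change -0.91, edgeR adjusted p = 0.000147). Obsc, or Unc-89, a giant protein of the M line related to bt and sls, was at 24.4, 32.2 and 22.8 CPM in control and at 10.4, 10.8 and 15.8 CPM in EcRi, and it fell by 1.10 on the log2 scale (SE 0.20, edgeR adjusted p = 0.00264). Strn-Mlck, a kinase of the titin family, rose from 21.5 ± 1.01 to 48.5 ± 8.90 CPM (log2 fold change 1.17, SE 0.13, edgeR adjusted p = 0.000187). Without TMM neither fall passed, and both rises did. The list also holds fln, a gene of adult flight muscle, which was listed at 0.

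Z disc genes, whose products anchor the thin filaments at the site where sls is held, included 3 of 9 that fell and 2 that rose, a balance that turned to 1 lower and 5 higher without TMM. Zasp52 was at 88.3, 98.9 and 77.2 CPM in control and at 340.1, 381 and 336 CPM in EcRi. All EcRi libraries lay far above all control libraries, and Zasp52 rose 4.001-fold (log2 SE 0.12, edgeR adjusted p = 1.17e-05), opposite to Mhc and the light chains. The filamin gene cher, also used outside muscle, rose from 222 ± 31.0 to 469.7 ± 41.8 CPM (log2 fold change 1.08, edgeR adjusted p = 0.000291). Mlp60A, a muscle LIM protein, fell from 70.1 ± 6.20 to 19.6 ± 0.845 CPM (log2 fold change -1.84, edgeR adjusted p = 5.99e-06), and its relative Mlp84B, chosen after its values were seen, fell by 0.84 (edgeR adjusted p = 0.000177) but did not pass without TMM (log2 fold change -0.18, edgeR adjusted p = 0.214). Actn, the alpha-actinin gene that crosslinks thin filaments in the Z disc, was at 61.8 ± 10.3 CPM in control and 58.2 ± 3.98 CPM in EcRi, did not pass (edgeR adjusted p = 0.588), and was likewise chosen afterwards. Lasp was listed at 0 in all libraries, and its interval lies wholly within another gene on the same strand.

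Calcium handling genes mostly did not pass, with 1 of 6 higher and none lower (3 higher without TMM). SERCA, the pump that returns calcium to the sarcoplasmic reticulum and that other cells use too, was at 291 ± 9.01 CPM in control and 268 ± 15.3 CPM in EcRi (log2 fold change -0.12, edgeR adjusted p = 0.315). Without TMM its log2 fold change was 0.54 and passed as higher (edgeR adjusted p = 0.00426). With TMM the gene that rose was jp, junctophilin, from 0.435 ± 0.116 to 1.13 ± 0.128 CPM (log2 fold change 1.38, edgeR adjusted p = 0.00205). Attachment genes rose in 11 of 16 cases and fell in 1 (14 and 1 without TMM). The integrin beta gene mys rose from 341 ± 19.2 to 516 ± 15.8 CPM (log2 fold change 0.60, edgeR adjusted p = 0.00128) and the integrin alpha gene mew by 0.95 (edgeR adjusted p = 0.000403), both also made by the gut epithelium. Scgdelta, a sarcoglycan gene, went the other way, from 1.78 ± 0.0227 to 0.194 ± 0.0478 CPM (log2 fold change -3.20, SE 0.24, edgeR adjusted p = 2.52e-05). The sarcoglycan genes Scgalpha (0.36, edgeR adjusted p = 0.198) and Scgbeta (-0.30, edgeR adjusted p = 0.286), named after their values were seen, did not pass.

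Of 14 muscle regulators, 7 rose and 2 fell, and without TMM 9 were higher and none lower. Mef2, the transcription factor that acts on many sarcomere genes in Drosophila, was at 84.5, 74.7 and 84.8 CPM in control and at 66.7, 60.2 and 66.2 CPM in EcRi. The libraries did not overlap, and the fall of 0.34 on the log2 scale (log2 fold change -0.34, SE 0.09, edgeR adjusted p = 0.0127) was smaller than that of any of the 9 sarcomere genes that fell. Mef2 was chosen after its values were seen. Without TMM its log2 fold change was 0.32 and passed in the opposite direction, as did 57.3% of all features. The direction of Mef2 thus depends on the scaling. The T-box gene org-1 fell by 1.02 (edgeR adjusted p = 0.00631) but did not pass without TMM (log2 fold change -0.39, edgeR adjusted p = 0.205), and mbc, a gene of myoblast fusion that also acts in cell migration, rose from 79.1 ± 4.18 to 134.5 ± 20.1 CPM (log2 fold change 0.77, edgeR adjusted p = 0.00101). Him, a repressor of Mef2 activity, had 1, 0 and 0 counts in control and 20, 28 and 24 counts in EcRi, which is close to the limit of detection.

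**Figure D5:**
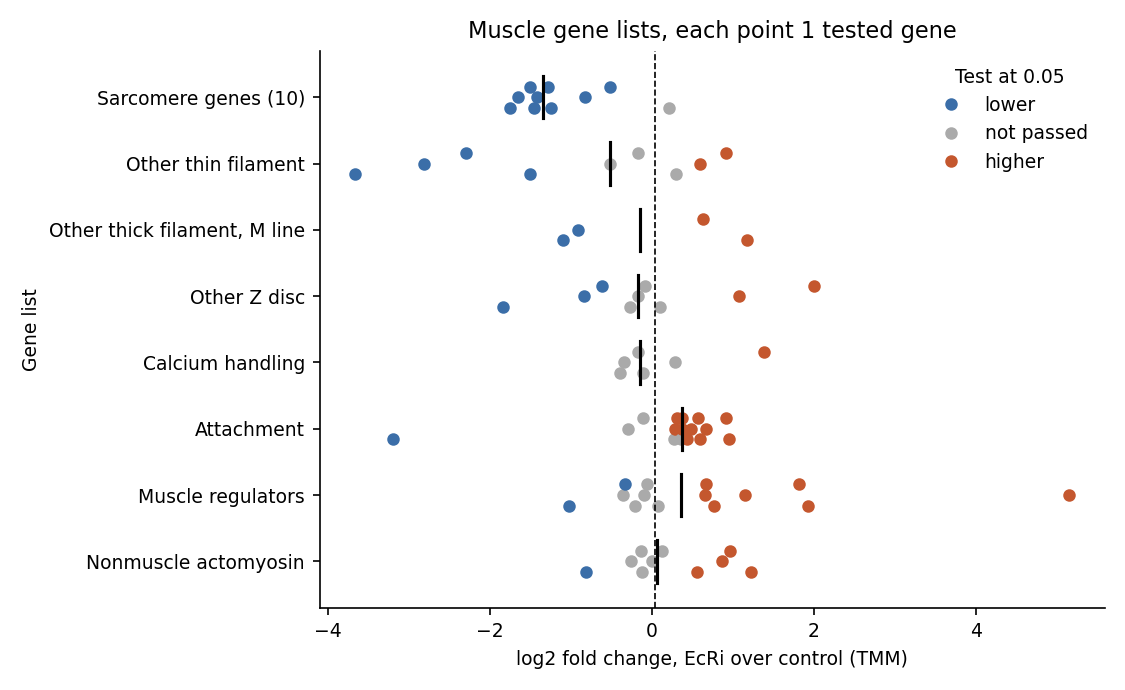
Log2 fold change (EcRi over control, TMM) of every tested gene in the sarcomere set, 6 other muscle lists and the nonmuscle actomyosin list, coloured by the edgeR call at an adjusted p of 0.05, with a short line at each median and a dashed line at the median of all features, 0.03. The sarcomere genes have a median of -1.35 and the attachment genes of 0.37. Without TMM all medians are higher, at -0.70 and 1.03 for these lists and 0.68 for all features.

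Other cells of the dissected tissue were followed by marker lists, and several of these moved with the genotypes beside the sarcomere genes. Their counts stand against 29.3% lower and 30.1% higher of all features with TMM, and 12.7% lower and 57.3% higher without it. The 8 enterocyte markers summed to between 59420 and 100300 CPM in control and between 7816 and 13220 CPM in EcRi. Of them 6 fell (4 lower and 1 higher without TMM), among them the protease gene Jon65Aiv (log2 fold change -3.23) and LManVI (-4.30). Jon65Aiv alone averaged 59900 CPM in control and 6385 CPM in EcRi. The remaining enterocyte markers were named after their values were seen. Among these, betaTry (-2.92), alphaTry (-1.90), mex1 (-0.43) and Vha100-4 (-0.33) fell as well. Myo31DF (log2 fold change -0.06, edgeR adjusted p = 0.655) and Amy-p (0.47, edgeR adjusted p = 0.491) did not pass. Tracheal markers summed to between 113 and 164 CPM in control and between 752 and 842 CPM in EcRi. Of these, 7 of 10 rose (8 without TMM), among them Cad96Ca (3.35) and the chitin-modifying enzyme serp (3.19). Most of the EcRi sum came from serp (mean 363 CPM) and verm (281 CPM), which were at 39.8 and 38.7 CPM in control. The markers btl (0.18, edgeR adjusted p = 0.409), dysf (-0.26, edgeR adjusted p = 0.402) and rib (0.68, edgeR adjusted p = 0.289) did not pass. They and verm were named after their values were seen. Of 10 enteroendocrine genes 3 were lower, a share near that of all features, and without TMM none was lower and 5 were higher. Their sums were 269 to 305 CPM in control and 206 to 235 CPM in EcRi. Malpighian tubule markers summed to 742 to 884 CPM in control and 1345 to 1572 CPM in EcRi, with 1 of 4 higher and 2 lower (2 and 2 without TMM). Most of the sum was Uro, which rose from a mean of 562 CPM to 1308 CPM. Drip fell from 229.5 to 98.3 CPM (log2 fold change -1.22) and CapaR from 7.43 to 3.61 CPM (-1.04). Lkr did not pass (edgeR adjusted p = 0.826). CapaR and Lkr were named after their values were seen. Fat body markers ranged from 42.2 to 841 CPM in control and from 246 to 1165 CPM in EcRi, with 1 of 7 higher under either scaling (Fbp1, log2 fold change 6.27 with TMM). Haemocyte markers ranged from 31.7 to 51.7 and from 28.8 to 56.0 CPM with none of 7 passing (3 higher without TMM). Neuronal markers ranged from 172 to 187 and from 216 to 229 CPM with 1 of 6 higher and 2 lower, which turned to 4 higher and none lower without TMM. With TMM Syt1 rose (log2 fold change 0.68), and Cadps had the larger fall (-0.54). Salivary gland markers, of which 2 of 6 could be tested and 1 was higher (Sgs5, from 0 to 0.375 CPM), stayed at or below 0.575 CPM in every library. The part of these cell types in the values of the sarcomere genes was not tested.

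Body wall muscle carries the same sarcomere proteins and could be taken along in a dissection. Its marker list summed to between 8.80 and 12 CPM in control and between 8.04 and 9.74 CPM in EcRi, and 1 of 5 tested genes was lower, GluRIIE (log2 fold change -0.87). Without TMM GluRIIE did not pass (log2 fold change -0.23, edgeR adjusted p = 0.363), and 3 of the 5 were higher, beside 57.3% of all features. The most abundant, GluRIIC, a glutamate receptor subunit of the neuromuscular junction, was at 4.13 CPM in control and 3.50 CPM in EcRi and did not pass. The transcription factor nau, expressed in body wall muscle, stayed at or below 0.0127 CPM, within the limit of detection.

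Genes that share sequence with a member's interval could add to its counts. Only l(3)neo43, on the opposite strand, overlaps exons of Tm1, over 280 bases or 2.86% of them, and only asRNA:CR42860, also opposite, overlaps exons of sls, over 1089 bases or 1.85%. Whether the counting used strand is not given in the sources used here. Counts of l(3)neo43 came to 0.0744 CPM in control and 0.0495 CPM in EcRi, and those of asRNA:CR42860 to 0.151 and 0.0624 CPM, far below the levels of Tm1 and sls. The other 8 sarcomere genes overlap no annotated exon of another gene.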

How the data were processed

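The series has 3 control and 3 EcRi libraries, grouped by GEO's labels, and they were numbered as biological replicates there. The authors trimmed reads with Trim Galore!, mapped them to dm6 with HISAT2 and used featureCounts for counting, all on Galaxy, and the deposited values are raw counts per gene without normalization. Versions, the strand setting and the treatment of reads with several matches are not given in the sources used here, and the labels name an RNeasy kit where the methods name TRIZOL. Here the 24278 entries were filtered by filterByExpr, scaled by TMM and tested with the robust quasi-likelihood test of edgeR 4.0.16 (R 4.3.3), with Benjamini-Hochberg adjustment at 0.05 over 12193 features. The study names limma-voom, which was run as an alternative (limma 3.58.1), as was DESeq2 1.42.0. Log2 CPM used a prior count of 2, and exon lengths, strands and overlaps came from the Ensembl BDGP6 annotation, in which 99.8% of the genes were found.

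The other alternatives were RLE factors, no TMM, other filters, genes only, the replicate block, each library left out, and a length correction added after the data were seen. The 10 genes and all lists (other thin filament, thick filament and M line, Z disc, calcium handling, attachment, regulators, nonmuscle actomyosin and 9 cell type lists) were chosen with earlier results of these data known. Besides the 10 genes, the text names per list the largest change in each direction among genes that passed, the most abundant gene and markers near 0, the 10 genes most alike in pattern, and EcR. Where another gene is named, the text says that it was picked with its values in view. The tests were tried on simulated data, and no library was a copy of another.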

Additional observations from a re-analysis of the deposited data

How the results depend on the processing

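Leaving out TMM was the setting that moved most. It gave 6982 features higher and 1546 lower in place of 3676 and 3574, and the sarcomere genes then had 7 lower and 1 higher in place of 9 and 0, with Tm1 at a log2 fold change of 0.13, bt at -0.20 and sls at 0.85. The other muscle lists had 6 lower, and the log2 ratio of the summed sarcomere level was -0.46 in place of -1.11. Without TMM the sign also turned for SERCA (0.54), GluRIIC (0.41), Pxn (0.62), Cadps (0.11), EcR (0.47), CG9393 (0.076), Nrd1 (0.074), Actn (0.57) and Mef2 (0.32). Among them SERCA (edgeR adjusted p = 0.00426) and Mef2 passed as higher. Obsc (-0.45), Mf (-0.27), org-1 (-0.39), Act5C (-0.16), Orcokinin (-0.092), CCHa2 (-0.033), GluRIIE (-0.23), Sf3b3 (-0.27) and Mlp84B (-0.18) kept their sign but no longer passed. Subtracting the median of the length class, chosen after the data were seen, moved Mhc to -1.76, Tm1 to -0.77, Prm to -1.71 and sls to -0.014.

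With each library left out in turn, 9 sarcomere genes stayed lower, with log2 fold changes from -1.68 to -1.39 for Mhc, -1.83 to -1.70 for Mlc2, -0.55 to -0.50 for Tm1, -1.02 to -0.67 for bt and 0.08 to 0.33 for sls. The sign turned for Pxn (-0.30 to 0.17), Lsp1beta (-0.90 to 1.58), EcR (-0.30 to 0.10) and Actn (-0.21 to 0.031). Replicate numbers did not pair the libraries (correlations of same-numbered deviations -0.0566, 0.0369 and -0.0588). With the replicate block 3328 features were higher and 3327 lower, the same 9 sarcomere genes fell, and bt was at -0.805 (edgeR adjusted p = 0.0325). Over 52 genes outside the 10, chosen by the naming rule or after their values were seen and not all named in the text, 701 of 726 values kept their direction and their side of the threshold, 9 no longer passed and 16 changed sign.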

Other observations

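The nonmuscle counterparts of the sarcomere proteins, which make the contractile cortex of other cells, were listed beside the 10 genes. Of 10 genes tested 4 rose and 1 fell, beside 30.1% higher and 29.3% lower of all features, and their median was 0.06 on the log2 scale. Without TMM 9 were higher and none lower, with a median of 0.71. Of all features 57.3% were then higher and 12.7% lower, with a median of 0.68. The nonmuscle myosin heavy chain gene zip was at 576, 540.5 and 497 CPM in control and at 1163, 1240 and 1355 CPM in EcRi, higher in every EcRi library, where Mhc was lower. It rose by 1.22 on the log2 scale (SE 0.12, edgeR adjusted p = 9.82e-05). Its regulatory light chain gene sqh, chosen after its values were seen, rose by 0.96 (SE 0.13, edgeR adjusted p = 0.000447), where Mlc2 fell by 1.76. Act5C, a cytoplasmic actin and the most abundant gene of this list, fell from 6038 ± 560.3 to 3430 ± 255 CPM (log2 fold change -0.82, SE 0.15, edgeR adjusted p = 0.00224), and without TMM its fall was -0.16 and did not pass.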
